A study of Mus musculus with 21 samples.

Results

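The Wdfy genes Wdfy1, Wdfy2, Wdfy3 and Wdfy4 were measured in mouse colon, and all 4 were found by symbol among the 24062 genes of the count table. The family was picked because Wdfy1 had differed between genotypes in normal colon in an earlier look at the same libraries, and its 3 relatives were added by name. Those genotype differences in normal colon are therefore given only as a description. All 4 genes passed the filter on low counts, which left 15936 genes for testing.

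RNA sequencing gave 21 libraries in 7 groups of 3, from C57BL/6 mice whose substrain and age are not given in the sources used here. Animals were wild-type or carried App NL-G-F, a knock-in App allele with mutations related to Alzheimer's disease, and no other allele is named for any group. The groups were normal colon and tumour from wild-type males, from knock-in males and from wild-type females, and normal colon from knock-in females only, since tumours of knock-in females were not analysed here. Tumours were induced with AOM/DSS, the carcinogen azoxymethane followed by the irritant dextran sulfate sodium. The labels call the normal libraries untreated, whereas the series' own description speaks of tissue beside tumours or of colon that formed none. Whether the libraries of a group came from separate animals is not given in the sources used here, so p-values measure the spread between libraries. The series asks what lay behind the differing outcomes of treatment when App is mutant.

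Library totals ran from 3414123 to 26174008 counts, with replicate 2 of the wild-type male tumours at the lower end. A value of 3 counts, taken as the floor, corresponded to between 0.115 and 0.879 CPM (counts scaled by library size) across libraries, far below every value of a Wdfy gene. Xist, the RNA of the inactive X chromosome, was at 1720 CPM or more in all 9 female libraries and at 17.1 CPM or less in all 12 male libraries, both scaled by library totals. App counts cannot check the knock-in, because the allele changes bases within the gene. On the same scale, App ranged from 495.4 to 720.3 CPM in the knock-in and from 431.1 to 997.7 CPM in the wild-type libraries.

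WDFY proteins carry WD40 repeats, which serve as a platform for binding partners, and the family is named for these and for the FYVE domain, a zinc finger that holds proteins on endosomes. WDFY1 recruits the adaptor TRIF to the Toll-like receptors TLR3 and TLR4, and WDFY2 sits on early endosomes and binds Akt and atypical protein kinase C. WDFY3, also called Alfy, is a large scaffold that brings protein aggregates to the autophagy machinery, and WDFY4 is needed by the cross-presenting dendritic cells called cDC1. WDFY3 and WDFY4 also carry a BEACH domain, shared by a class of large membrane-traffic proteins.

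The gene models fall into a small and a large pair. In GENCODE M21 on GRCm38, the assembly also known as mm10, Wdfy1 lies on the minus strand at chr1:79702262-79776143, and Wdfy2 on the plus strand at chr14:62837678-62961509. Their coding transcripts each have 12 exons, with coding sequences of 1230 bases in Wdfy1 and 1200 bases in Wdfy2. Wdfy3 lies on the minus strand at chr5:101832956-102069921, with 65 exons and 10578 coding bases. Wdfy4 lies on the minus strand at chr14:32959547-33185508, with 62 exons and 9549 coding bases.

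Sequences are shown first where they bear on how reads can be told apart. The longest identical coding stretch between Wdfy1 and Wdfy2 was 20 bases, at coding positions 667 to 686 of both. It stands in capitals in these windows, which run 5′ to 3′ from coding position 647 to 706:
Wdfy1: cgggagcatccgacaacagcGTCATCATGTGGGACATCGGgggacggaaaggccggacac
Wdfy2: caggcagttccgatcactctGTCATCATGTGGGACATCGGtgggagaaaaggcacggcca
The longest between Wdfy3 and Wdfy4 was 15 bases, at coding positions 1858 to 1872 of Wdfy3 and 1849 to 1863 of Wdfy4, again in capitals:
Wdfy3: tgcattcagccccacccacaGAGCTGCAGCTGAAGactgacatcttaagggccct
Wdfy4: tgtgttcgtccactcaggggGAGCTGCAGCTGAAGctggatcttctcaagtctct
All 6 pairs of members shared at most 20 identical coding bases in a row. Outside the family, 54 of 1151 runs of 50 coding bases of Wdfy2 were also found, on either strand, in Gm26536. For Wdfy3 it was 418 of 10529, in Gm20548 and Gm42934, and for Wdfy1 and Wdfy4 it was 0. Each of these other genes lies on the opposite strand, overlaps exons of its member and is absent from the count table.

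Within Wdfy1 itself the reference holds a repeat. Exons 4, 5 and 6 of the coding transcript, all coding, are each present as an identical second copy 7442 bases farther along the gene, and 4 annotated transcripts of 4551 bases share 1 distinct sequence. Exon 4 lies at chr1:79729656-79729710 and chr1:79722214-79722268, exon 5 at chr1:79726566-79726716 and chr1:79719124-79719274, and exon 6 at chr1:79724645-79724757 and chr1:79717203-79717315. Printed 5′ to 3′ on the strand of the gene, these exons read:
exon 4: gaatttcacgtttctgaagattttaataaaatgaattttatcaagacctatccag
exon 5: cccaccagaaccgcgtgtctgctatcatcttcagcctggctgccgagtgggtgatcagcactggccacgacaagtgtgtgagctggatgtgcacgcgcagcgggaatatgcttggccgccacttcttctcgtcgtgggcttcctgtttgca
exon 6: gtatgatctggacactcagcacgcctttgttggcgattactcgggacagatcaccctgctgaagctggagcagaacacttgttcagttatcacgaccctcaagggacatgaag
Together the 3 exons make 319 bases, 25.9% of the coding sequence and 7.01% of the transcript. A read inside them fits both copies equally, and how such reads were counted is not given in the sources used here.

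**Figure D1:**
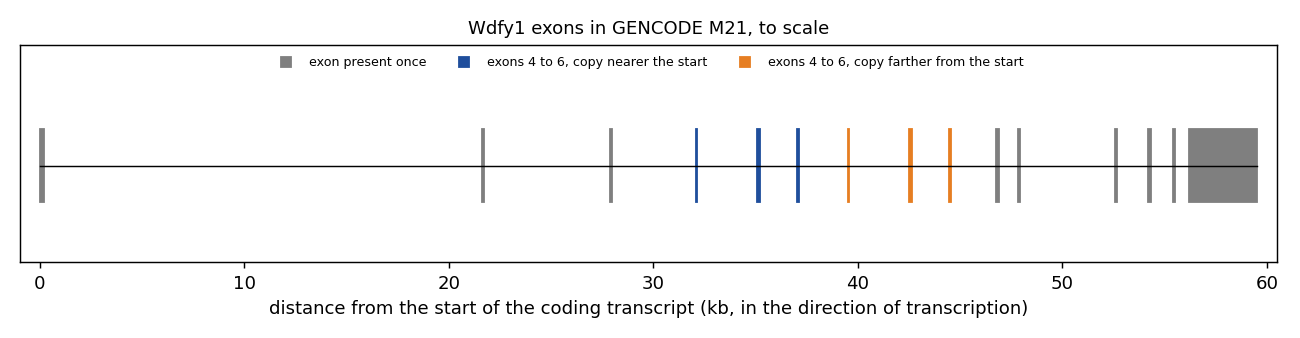
Exons of the Wdfy1 coding transcript drawn to scale along the gene, in kb from the transcript start in the direction of transcription. Grey exons are present once; exons 4, 5 and 6 appear in blue and again in orange, 7442 bases apart.

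Per kilobase of exon, Wdfy3 was the most abundant member, with a median of 16.5 RPKM, reads scaled by exon length and library size, over the 21 libraries. Wdfy1 followed with a median of 8.51 RPKM, Wdfy4 with 3.93 RPKM and Wdfy2 with 1.80 RPKM. Levels between groups are compared below in CPM with TMM-scaled library sizes. The standard deviation of log2 CPM over all libraries was 0.90 for Wdfy4, 0.60 for Wdfy1, 0.28 for Wdfy2 and 0.19 for Wdfy3, at percentiles 84.1, 68.0, 30.2 and 10.6 of the tested genes. Wdfy3 was thus steady and Wdfy4 variable.

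**Figure D2:**
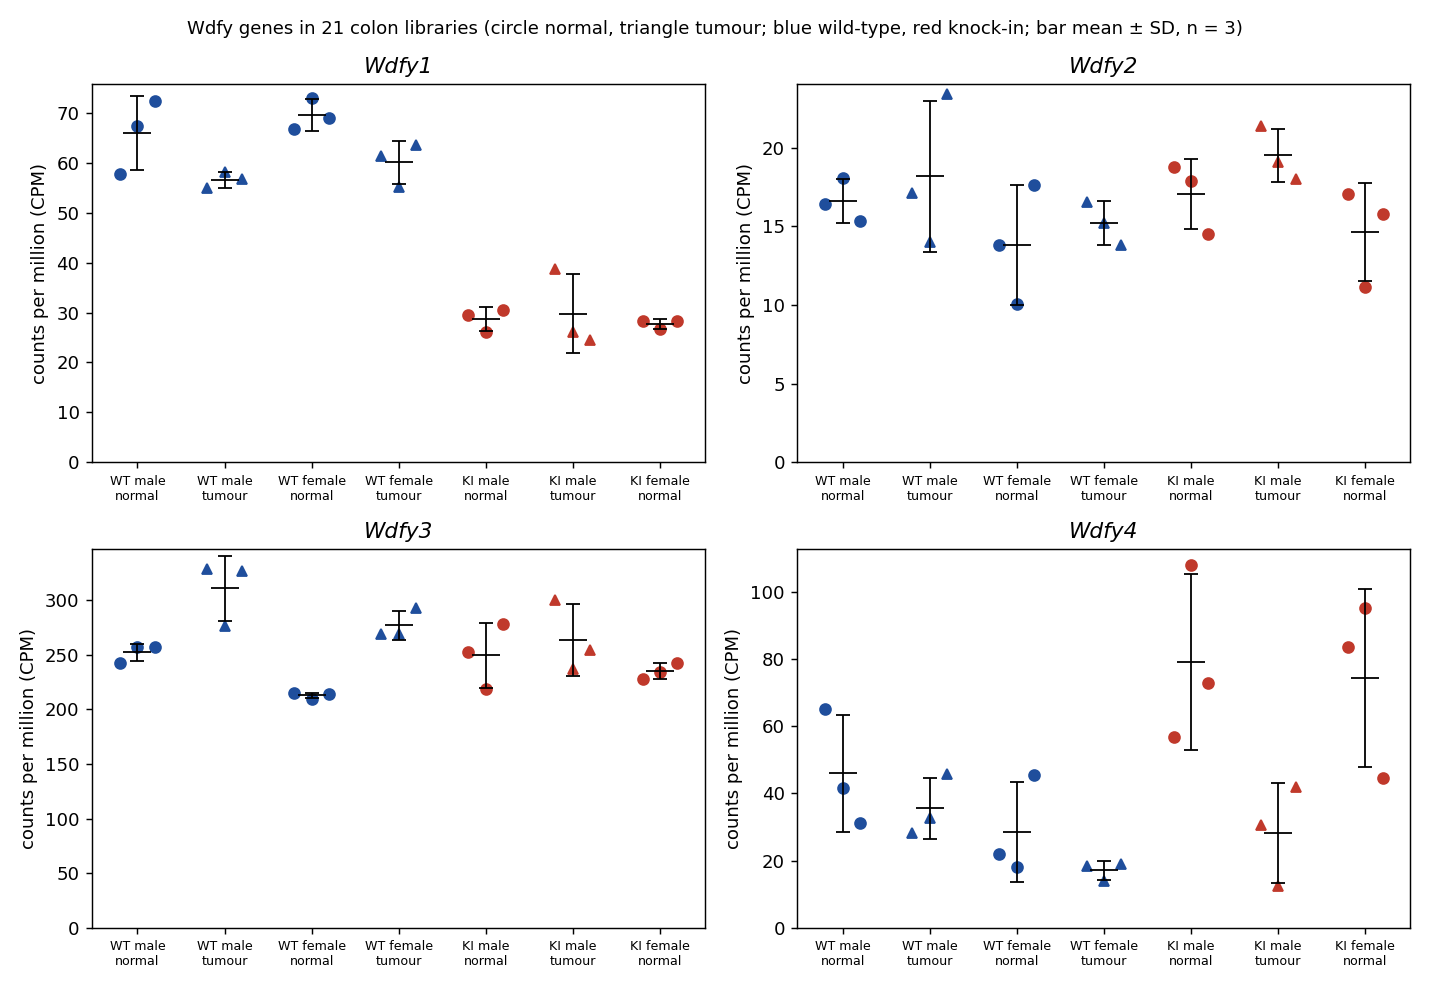
CPM of each Wdfy gene in every library, by group; points are libraries, circles normal colon, triangles tumour, blue wild-type, red knock-in, and bars show mean ± SD of 3 libraries. All 9 knock-in libraries lie at 38.8 CPM or less for Wdfy1 and all 12 wild-type libraries at 55.0 CPM or more, while the other members overlap between genotypes.

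Wdfy1 was lower in colon of the knock-in than of the wild-type, in normal tissue and in tumours. In wild-type male normal colon it stood at 57.8, 67.3 and 72.4 CPM, and in knock-in male normal colon at 29.5, 26.0 and 30.6 CPM. In wild-type female normal colon it stood at 66.7, 73.0 and 68.9 CPM, and in knock-in female normal colon at 28.3, 26.6 and 28.3 CPM. The ranges of the 2 genotypes did not overlap in either sex, as was the case for 7.08% of all tested genes in males and 37.8% in females. The fitted log2 differences, knock-in minus wild-type, were -1.20 (SE 0.14) in males and -1.32 (SE 0.14) in females, given without a test because they led to the choice of the gene. In the same fit 0.0126% of all tested genes passed the threshold for males and 16% for females.

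The tumour libraries were not used in that choice. The sources used here do not settle whether they came from other animals than the normal libraries, and both entered the same fit. The test in tumours is therefore not shown to be independent of the choice. Wdfy1 stood at 55.0, 58.2 and 56.6 CPM in wild-type male tumours and at 38.8, 26.0 and 24.6 CPM in knock-in male tumours. Every knock-in tumour was below every wild-type tumour, and knock-in replicate 1 was the nearest to them. Wdfy1 was 1.90-fold lower in the knock-in tumours, a log2 fold change of -0.92 (SE 0.14, 95% interval -1.21 to -0.63, edgeR adjusted p 0.00350), and was the gene with the 12th smallest p of 15936. Of all tested genes 14.5% passed the threshold in this comparison and 5.23% were lower in the knock-in, while 36.4% had groups that did not overlap. The other members did not pass: the log2 fold change was 0.08 (edgeR adjusted p 0.800) for Wdfy2, -0.24 (edgeR adjusted p 0.120) for Wdfy3 and -0.34 (edgeR adjusted p 0.617) for Wdfy4. Wdfy3 did pass without knock-in tumour replicate 1, with a log2 fold change of -0.38 and an edgeR adjusted p of 0.0352.

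Across all libraries Wdfy1 ranged from 24.6 to 38.8 CPM with a median of 28.3 in the 9 knock-in libraries, and from 55.0 to 73.0 CPM with a median of 62.5 in the 12 wild-type libraries. The lowest wild-type value was 1.42 times the highest knock-in value. Such a separation was found for 6 of the 15936 tested genes, or 0.0377%, and 2 of these, 0.0126%, were lower in the knock-in. Since normal libraries are among those compared, this count is a description. In descending order, the group means of Wdfy1 began with wild-type female normal colon (69.5 ± 3.23 CPM, SD, n = 3), wild-type male normal colon (65.9 ± 7.41 CPM), wild-type female tumours (60.1 ± 4.35 CPM) and wild-type male tumours (56.6 ± 1.59 CPM). Then came knock-in male tumours (29.8 ± 7.83 CPM), knock-in male normal colon (28.7 ± 2.40 CPM) and knock-in female normal colon (27.7 ± 0.958 CPM). Neighbours in this order overlapped except at the step between wild-type and knock-in.

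The other 5 genes that separated the genotypes, named here after their values were seen, were Snord17, Tef, Dbp, Agt and Nr1d2. Snord17, a small nucleolar RNA, was lower in the knock-in, at 18.7 to 55.2 CPM against 56.4 to 157.5 CPM. Tef and Dbp, transcription factors driven by the circadian clock, were higher, with medians of 84.9 against 26.6 CPM and of 17.7 against 2.32 CPM. Nr1d2, a nuclear receptor of the clock, had medians of 105.1 against 60.6 CPM, and Agt, the angiotensinogen gene, 46.6 against 8.89 CPM. The time of day of tissue collection is not given in the sources used here, and the part of such genes in the Wdfy1 result was not tested.

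Likewise, the 5 genes with the highest Pearson correlation with Wdfy1 over the 21 libraries included Snord17 (0.82), Ypel2 (0.77), Efcab7 (0.75) and Cxadr (0.74), on log2 CPM. All libraries of a genotype lie on the same side in Wdfy1, so these correlations mostly hold the genotype step. Within the 12 wild-type libraries the correlation with Snord17 was 0.36, and within the 9 knock-in libraries it was -0.11. For Cxadr, which encodes a junction protein of epithelia, it was 0.49 and 0.50.

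The genes beside Wdfy1 on chromosome 1 are given for comparison. Mrpl44, a mitochondrial ribosomal protein gene that starts head to head with Wdfy1 and overlaps its start by 126 bases on the other strand, stood at 16.8 ± 0.958 CPM in wild-type and 17.7 ± 1.03 CPM in knock-in male tumours (SD, n = 3). Its log2 fold change was 0.08 there (edgeR adjusted p 0.701). In normal colon the log2 difference of Mrpl44, knock-in minus wild-type, was -0.27 (95% interval -0.52 to -0.0081) in males, the same direction as Wdfy1, and 0.02 in females. Of the 5 tested neighbours among 3 on each side, 0 passed the edgeR threshold between genotypes in normal colon of either sex, with 1 in each sex at an unadjusted p under 0.05. The DESeq2 Wald test also called 0 in each sex, and limma voom called 0 in males and 1 in females. With 0.0126% of all genes called in male and 16% in female normal colon, these counts say little about neighbours. In males Kcne4, Ap1s3 and Serpine2 also had log2 differences below 0, of -0.10, -0.17 and -0.16. In male tumours, where 14.5% of all genes passed, 3 of the 5 did, all higher in the knock-in: Kcne4 by 3.57, Scg2 by 1.20 and Ap1s3 by 1.09 on the log2 scale. These 3 were opposite to Wdfy1 in the tumours.

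Because the substrain is not given, genes known to differ between C57BL/6 substrains were set beside Wdfy1. Of 5 tested, 0 passed between genotypes in male normal colon and 0 in male tumours with edgeR. At an unadjusted p under 0.05 these counts were 2 and 1. Cyfip2 passed in normal colon of females, higher in the knock-in (log2 difference 1.35, edgeR adjusted p 0.0340). It correlated with Wdfy4 at 0.96 (Pearson, 21 libraries), and Wdfy4 with a sum of B cell markers at 0.90. That sum averaged 68.4 CPM in knock-in and 26.6 CPM in wild-type females without tumour, though 0 of its 5 markers passed. The part of immune cells in the Cyfip2 call was not tested. The DESeq2 Wald test and limma voom called 0 in both male comparisons. The background was 0.0126% of all genes in male normal colon and 14.5% in male tumours, so counts of 0 of 5 say little about the list. Nnt, which carries a deletion in the J substrain, stood at 72.6 ± 9.28 CPM in wild-type and 33.5 ± 9.29 CPM in knock-in male normal colon, and at 50.3 ± 4.11 and 42.0 ± 17.8 CPM in the male tumours (SD, n = 3). In male normal colon the Nnt groups did not overlap, as for 7.08% of all tested genes. Its log2 difference there, knock-in minus wild-type, was -1.12 (95% interval -1.73 to -0.50), beside -1.20 for Wdfy1. The median log2 difference of the list was 0.68 in male normal colon, opposite in sign to Nnt. It was 0.23 in female normal colon and -0.04 in male tumours. No Nnt comparison between genotypes passed after adjustment over all genes, with log2 fold changes of -0.30 in female normal colon and -0.26 (edgeR adjusted p 0.563) in male tumours. The part of the mouse strain in the Wdfy1 result was not tested.

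Numbers on the libraries bear on batch. Libraries with the numbers 152 to 154 in their labels stand apart from the run of the others, and what the numbers record is not given. They comprise wild-type female tumours 2 and 3, at 55.2 and 63.6 CPM of Wdfy1, and knock-in male tumour 3, at 24.6 CPM. The wild-type and knock-in libraries otherwise carry separate runs of numbers, so genotype and number cannot be told apart beyond this.

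Between tumour and normal colon of the same genotype, no difference in Wdfy1 passed. The log2 fold change, tumour minus normal, was -0.22 (95% interval -0.51 to 0.07, edgeR adjusted p 0.227) in wild-type males and -0.21 (95% interval -0.50 to 0.08, edgeR adjusted p 0.215) in wild-type females. In knock-in males it was 0.06 (95% interval -0.23 to 0.35, edgeR adjusted p 0.802). The normal libraries of these comparisons also served to pick the gene. Knock-in minus wild-type, the male tumour effects were 0.27 apart (edgeR adjusted p 0.385), which did not pass.

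**Figure D3:**
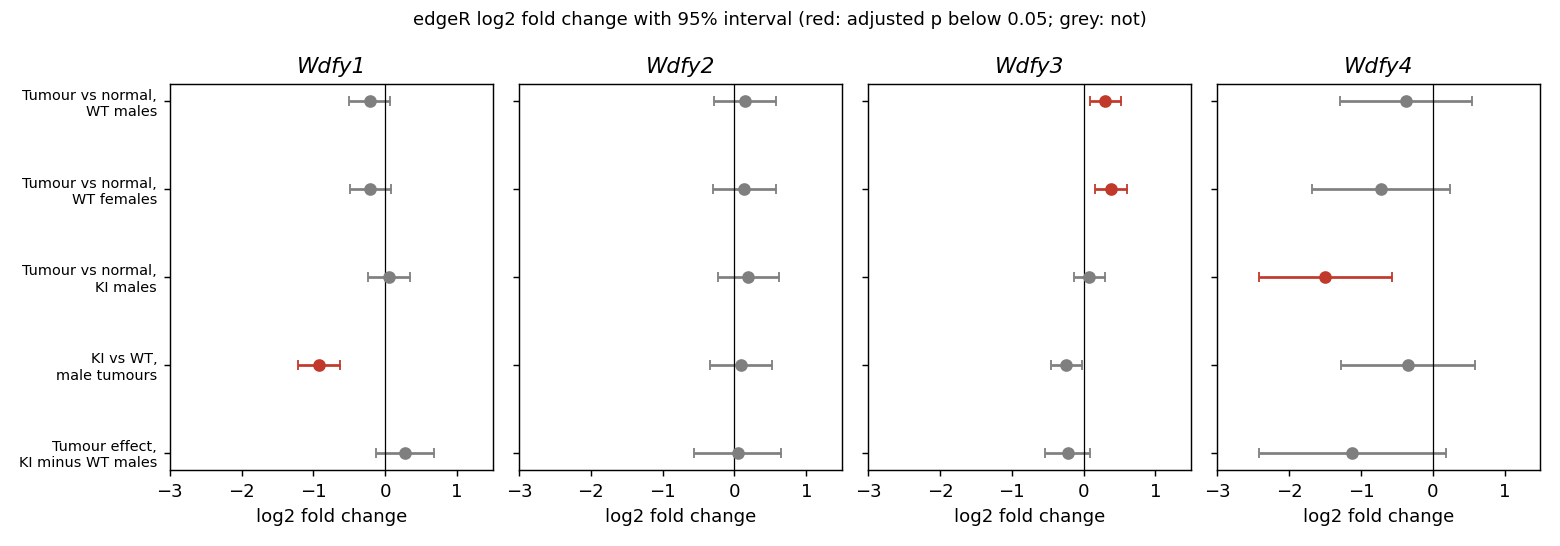
Log2 fold changes of the 4 Wdfy genes with 95% intervals from edgeR, for tumour against normal colon in 3 groups, knock-in against wild-type male tumours, and the difference of the tumour effect between male genotypes; red marks an adjusted p below 0.05. Wdfy1 passes in the genotype comparison of tumours (-0.92), Wdfy3 in both wild-type tumour comparisons (0.30 and 0.38) and Wdfy4 in knock-in males (-1.50).

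The signalling partners of WDFY1 did not move as a block. Of 15 tested genes of TLR3 and TLR4 signalling through TRIF, 1 rose and 2 fell in wild-type male tumours against a background of 35.7% of all genes called, 2 rose and 2 fell in knock-in male tumours (background 20.4%), and 4 rose and 4 fell in wild-type female tumours (background 49.1%). Between male tumours of the 2 genotypes 1 was higher and 1 lower, or 13.3% against 14.5% of all genes, which is near the background. The list's median log2 fold change there was 0.10, against 0.05 over all tested genes. Ticam1, which encodes TRIF, fell by 0.81 in wild-type female tumours (edgeR adjusted p 0.000965) and by 0.53 in knock-in male tumours (edgeR adjusted p 0.0388), and had a log2 fold change of -0.23 in wild-type males (edgeR adjusted p 0.319). Tlr4, the lipopolysaccharide receptor, was 0.71 higher in male tumours of the knock-in than of the wild-type (edgeR adjusted p 0.0439), and Irf7, a factor that switches on interferon genes, was lower by 0.99 (log2 fold change -0.99, edgeR adjusted p 0.0254). Tlr3, the double-stranded RNA receptor, had a log2 fold change of 0.60 (edgeR adjusted p 0.0628).

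Wdfy2 was the least abundant member and passed no test. It ranged from 10.03 CPM, in wild-type female normal replicate 2, to 23.4 CPM, in wild-type male tumour replicate 3, on raw counts of 48 to 348. The male tumours lay at 17.1, 14.0 and 23.4 CPM in wild-type and at 21.4, 19.1 and 18.0 CPM in knock-in mice, and the groups overlapped. Group means ran from 13.8 ± 3.81 CPM in wild-type female normal colon to 19.5 ± 1.71 CPM in knock-in male tumours (SD, n = 3), and every group overlapped with the next in this order. Tumour minus normal gave a log2 fold change of 0.15 in wild-type males, 0.14 in wild-type females and 0.19 in knock-in males, with edgeR adjusted p of 0.614, 0.617 and 0.517. The 95% intervals reached from -0.29 to 0.58, from -0.30 to 0.58 and from -0.23 to 0.62, so a change of about 1.5-fold could have gone undetected.

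A list of 9 tested genes around WDFY2 held 3 Akt genes, 2 atypical protein kinase C genes, Pdpk1, Foxo1, Foxo3 and Vamp2. In wild-type male tumours 2 rose and 3 fell, or 55.6% against 35.7% of all genes. In the knock-in 1 rose and 2 fell (33.3% against 20.4%), and in wild-type females 2 rose and 3 fell (55.6% against 49.1%), which is near the background. Between male tumours of the 2 genotypes 1 was higher and 2 lower in the knock-in (33.3% against 14.5%). Akt2, the Akt isoform of insulin signalling, rose by 0.71 in wild-type males (edgeR adjusted p 0.000120) and by 0.88 in wild-type females (edgeR adjusted p 5.02e-06), and was lower in male tumours of the knock-in (log2 fold change -0.49, edgeR adjusted p 0.0111). Prkcz, which encodes atypical protein kinase C zeta, fell by 0.75 in wild-type males, by 0.61 in knock-in males and by 1.05 in wild-type females. Genes most like Wdfy2 over the 21 libraries were Fbn2, Rcbtb2 and Rarg, with Pearson correlations of 0.75, 0.71 and 0.71.

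Wdfy3 was higher in wild-type tumours than in wild-type normal colon. In females it stood at 214.5, 209.7 and 213.8 CPM in normal colon and at 268.9, 268.9 and 292.3 CPM in tumours. All tumours were above all normal libraries, a separation seen for 58.4% of all tested genes, with means of 213 ± 2.57 and 277 ± 13.5 CPM (SD, n = 3). Wdfy3 rose 1.30-fold, by 0.38 on the log2 scale (SE 0.10, edgeR adjusted p 0.00542). Of all tested genes 25% were called higher in this comparison.

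In wild-type males Wdfy3 stood at 242.7, 256.7 and 256.7 CPM in normal colon and at 328.4, 276.5 and 326.8 CPM in tumours, again without overlap, which held for 52.4% of all genes. It rose 1.23-fold, by 0.30 on the log2 scale (SE 0.10, edgeR adjusted p 0.0298), where 16.5% of all genes were called higher. The male call was lost without any 1 of wild-type male normal replicates 1, 2 and 3 or tumour replicates 1 and 3, with edgeR adjusted p of 0.123, 0.0628, 0.0676, 0.143 and 0.107. It was also lost when only the compared groups entered the fit (log2 fold change 0.29, edgeR adjusted p 0.0530). Wdfy3 is long, with 15.3 kb of exon, and correction for GC content and transcript length ended the call in both sexes: the log2 fold change was then 0.18 in males (edgeR adjusted p 0.109) and 0.11 in females (edgeR adjusted p 0.324).

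**Figure D4:**
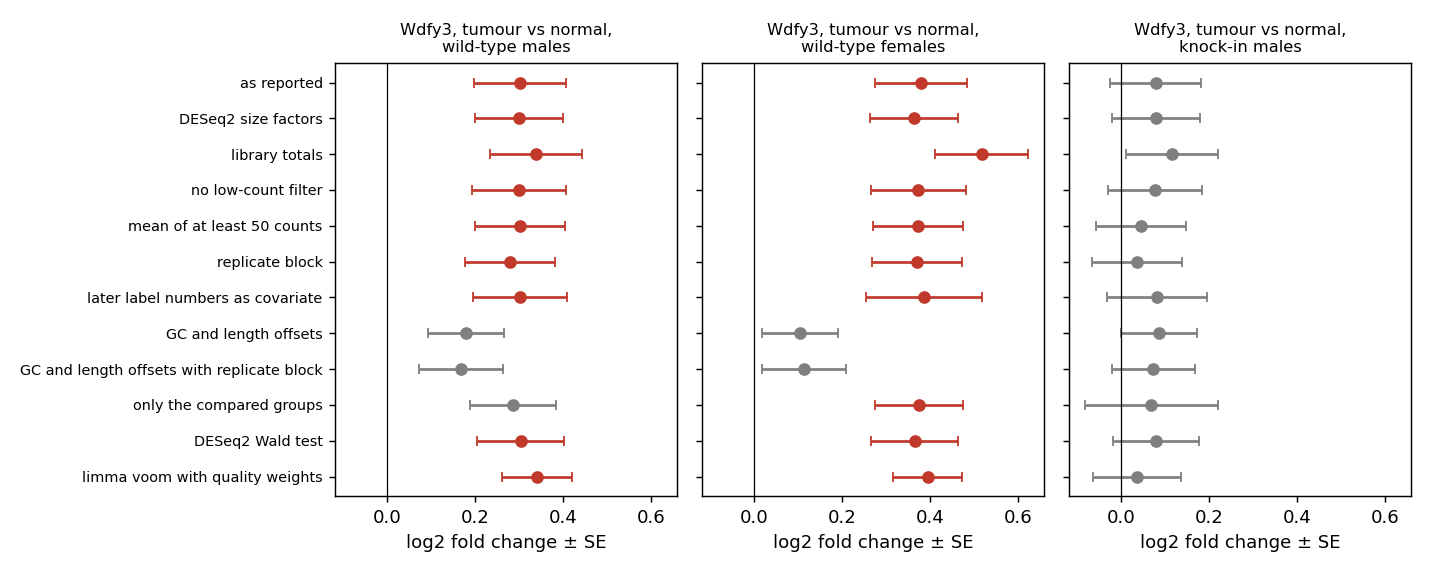
Log2 fold change ± SE of Wdfy3, tumour against normal colon, in wild-type males, wild-type females and knock-in males under each way of processing that keeps all replicates; red marks an adjusted p below 0.05. Estimates stay above 0, and in wild-type females they shrink from 0.38 to 0.11 with the GC and length correction.

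In knock-in males Wdfy3 stood at 252.0, 218.3 and 277.9 CPM in normal colon and at 299.9, 236.6 and 253.8 CPM in tumours. These overlapped, and the log2 fold change was 0.08 (95% interval -0.14 to 0.30, edgeR adjusted p 0.611). Knock-in minus wild-type, the male tumour effects were -0.22 apart (edgeR adjusted p 0.344), so an effect restricted to the wild-type was not shown. In knock-in against wild-type normal colon the fitted difference was -0.02 (SE 0.10) in males and 0.14 (SE 0.10) in females.

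Tissue makeup differed between these libraries. Summed over 6 epithelial markers, wild-type females ranged from 7541 to 8184 CPM in normal colon and from 4548 to 5328 CPM in tumours, and wild-type males from 5922 to 7855 CPM and from 5094 to 5316 CPM. In each of these comparisons 5 of the 6 fell and 1 rose. In knock-in males the sums overlapped, at 5823 to 6314 CPM in normal colon and 5570 to 6326 CPM in tumours. Of the 6 markers 1 passed there, higher (16.7% against 20.4% of all genes). All 6 smooth muscle markers fell in each of the 3 tumour comparisons, against the same backgrounds. Fibroblast markers summed to 649 ± 80.0 CPM in normal colon and 1556 ± 432.0 CPM in tumours of wild-type females (SD, n = 3). There 3 of 4 of these markers rose (75% against 49.1%). Their sums overlapped between normal colon and tumours in wild-type and in knock-in males. Over the 21 libraries Wdfy3 correlated with the epithelial sum at -0.75 (Spearman -0.80) and with the smooth muscle sum at -0.60 (Spearman -0.52). With the fibroblast sum it was 0.41 (Spearman 0.30) and with the sum of enteric neuron markers 0.50 (Spearman 0.57). These points share tissue type and library. The mean neuron sum of wild-type females was 26.4 CPM without and 55.4 CPM with tumour, although 4 of its 6 markers fell and 1 rose (83.3% against 49.1%). Ret alone averaged 7.30 and 50.9 CPM in these groups. Among wild-type males 4 neuron markers fell and 0 rose (66.7% against 35.7%). The correlation with this sum therefore does not show Wdfy3 rising with neuron content. In bulk tissue fewer cells of a type and less RNA per cell cannot be told apart, and the part of tissue makeup in the Wdfy3 result was not tested.

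Genes most like Wdfy3 were Zfhx3, Rere and Tpra1, each with a Pearson correlation of 0.94. Within the 12 wild-type libraries these were 0.95, 0.95 and 0.93, and within the 9 knock-in libraries 0.93, 0.89 and 0.98, so the likeness held in both. Genes of opposite course, named after their values were seen, included Txndc16 at -0.96 and Eea1 at -0.93. None of these correlations was corrected for GC content and transcript length, whose part in them was not tested. Eea1 encodes the early endosome FYVE protein and fell by 0.79 in wild-type male tumours (edgeR adjusted p 0.000417) and by 0.95 in wild-type female tumours (edgeR adjusted p 2.94e-05).

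Autophagy genes were called no more often than all genes in tumours against normal colon. Of 21 tested genes of selective autophagy, 3 rose and 3 fell in wild-type male tumours, 1 rose and 1 fell in knock-in male tumours and 4 rose and 4 fell in wild-type female tumours. These are 28.6%, 9.52% and 38.1% of the list, against 35.7%, 20.4% and 49.1% of all genes. The medians were 0.07, -0.01 and -0.12, against 0.01 over all genes in each. Between male tumours of the 2 genotypes the share was above the background. There 3 were higher and 4 lower in the knock-in, or 33.3% against 14.5% of all genes. The list median was -0.05, against 0.05 over all genes. Ulk1, the kinase that starts autophagy, rose by 0.62 in wild-type males (edgeR adjusted p 0.00213) and by 0.78 in wild-type females (edgeR adjusted p 0.000164). Tax1bp1, a cargo receptor, fell by 0.97 (edgeR adjusted p 0.000313) and by 1.01 (edgeR adjusted p 8.45e-05) in the same comparisons. Sqstm1, which encodes the aggregate receptor p62 that WDFY3 works with, did not pass between tumour and normal colon, with log2 fold changes of 0.13, -0.20 and -0.21 in wild-type males, in males of the knock-in and in wild-type females, and was lower in male tumours of the knock-in (log2 fold change -0.46, edgeR adjusted p 0.0318).

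In tumours against normal colon, relatives by domain were called at shares near or below those of all genes. Of 24 tested FYVE genes outside the family, 3 rose and 5 fell in wild-type males, 1 rose and 2 fell in knock-in males, and 2 rose and 6 fell in wild-type females, or 33.3%, 12.5% and 33.3% of the list against 35.7%, 20.4% and 49.1% of all genes. Of 7 BEACH genes, 2 rose and 1 fell in wild-type males, 1 rose in knock-in males, and 2 rose and 2 fell in wild-type females, or 42.9%, 14.3% and 57.1% of the list. Between male tumours of the 2 genotypes 14.5% of all genes were called. Of the FYVE genes 3 were higher and 1 lower in the knock-in (16.7%), and of the BEACH genes 2 were higher (28.6%). Nbea, a BEACH protein of neurons, rose by 1.35 in wild-type male tumours (edgeR adjusted p 0.00168) and by 1.90 in wild-type female tumours (edgeR adjusted p 5.15e-05). Lrba, a BEACH protein of immune regulation, fell by 0.56 (edgeR adjusted p 0.000470) and by 0.72 (edgeR adjusted p 1.72e-05).

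Wdfy4 fell in the tumours of knock-in males. It stood at 56.7, 107.9 and 72.9 CPM in their normal colon and at 30.6, 12.4 and 41.9 CPM in their tumours, without overlap (33.6% of all genes), with means of 79.2 ± 26.1 and 28.3 ± 14.9 CPM (SD, n = 3). It was 2.82-fold lower, a log2 fold change of -1.50 (SE 0.44, 95% interval -2.42 to -0.57, edgeR adjusted p 0.0260), where 9.97% of all genes were called lower. The call was lost without normal replicate 2 or 3 or tumour replicate 1 or 2, with edgeR adjusted p of 0.0785, 0.0596, 0.0522 and 0.0834 and log2 fold changes between -1.16 and -1.60. It was also lost with limma voom (adjusted p 0.0629) and when only the 2 compared groups entered the edgeR fit (adjusted p 0.112).

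In wild-type males Wdfy4 stood at 65.0, 41.5 and 31.2 CPM in normal colon and at 28.2, 32.6 and 45.8 CPM in tumours, and in wild-type females at 21.9, 18.0 and 45.4 CPM and at 18.3, 13.9 and 18.9 CPM. Both pairs overlapped. The log2 fold changes were -0.37 (95% interval -1.30 to 0.55, edgeR adjusted p 0.539) and -0.72 (95% interval -1.68 to 0.24, edgeR adjusted p 0.203). Knock-in minus wild-type, the male tumour effects were -1.12 apart (95% interval -2.42 to 0.18, edgeR adjusted p 0.261), so it was not shown to differ.

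Knock-in normal colon had the highest Wdfy4 means. Knock-in female normal colon stood at 83.4, 95.2 and 44.6 CPM. The fitted genotype differences in normal colon were 0.78 (SE 0.43) in males and 1.40 (SE 0.44) in females, given without a test because the family was chosen on that contrast. In each sex 1 knock-in library lay below the highest wild-type library.

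Across libraries Wdfy4 correlated with immune cell markers, most closely with those of B cells. The summed CPM of Cd79a, Cd79b, Ms4a1, Pax5 and Cd22 ranged from 38.1 to 116.2 in knock-in male normal colon and from 3.85 to 30.3 in knock-in male tumours. In knock-in females it ranged from 41.6 to 94.9 CPM, in wild-type male normal colon from 9.88 to 64.4 CPM and in wild-type female normal colon from 6.97 to 49.2 CPM. Wild-type male and female tumours ranged from 11.4 to 18.8 CPM and from 2.58 to 4.56 CPM. Pax5 had 0 counts in 4 libraries, and the other 4 markers were counted in every library. Over the 21 libraries the Pearson correlation of log2 values was 0.90 (Spearman 0.90), and it was 0.90 without the 2 libraries farthest from the median of the B cell sum. Within the 12 wild-type libraries it was 0.80 and within the 9 knock-in libraries 0.95.

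**Figure D5:**
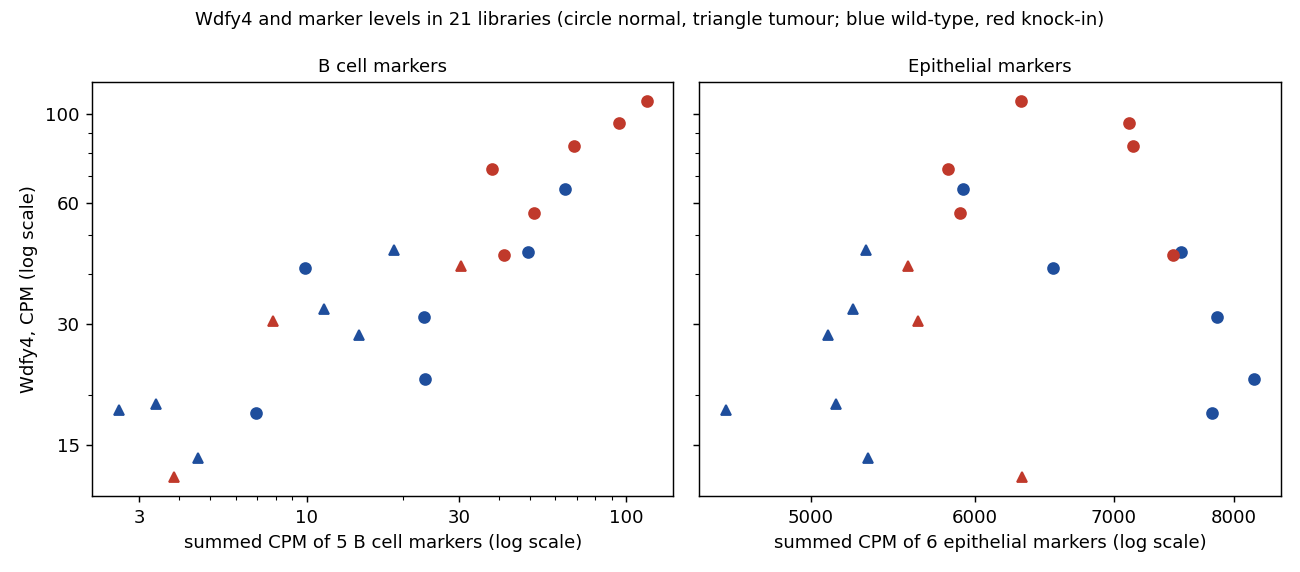
Wdfy4 in CPM against the summed CPM of 5 B cell markers (left) and of 6 epithelial markers (right) in 21 libraries, all axes logarithmic; circles are normal colon, triangles tumours, blue wild-type, red knock-in. Wdfy4 climbs with the B cell sum (Pearson 0.90) and shows little relation to the epithelial sum (0.20).

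Of the 5 B cell markers 3 fell in knock-in male tumours, or 60% against 20.4% of all genes, with a list median of -2.23 on the log2 scale. Limma voom called 1 and the DESeq2 Wald test 4. Those that fell included Pax5 by 3.75 and Cd79b by 2.56 on the log2 scale (edgeR adjusted p 0.0248 and 0.0364). In wild-type female tumours 3 fell (60% against 49.1%), with a median of -3.27. In wild-type male tumours 0 passed with edgeR, 0 had an unadjusted p under 0.05, and the DESeq2 Wald test and limma voom also called 0. The list median there was nonetheless -1.51, and the mean B cell sum was 32.6 ± 28.4 CPM in normal colon and 14.9 ± 3.73 CPM in tumours (SD, n = 3). For the difference of the tumour effect between male genotypes 0 of the 5 passed with edgeR, with 0 at an unadjusted p under 0.05 and 0 by the DESeq2 Wald test or limma voom. Among 8 cDC1 markers, all counted in every library, 2 fell in knock-in male tumours (25% against 20.4% of all genes), Irf8 by 0.76 (edgeR adjusted p 0.00695) and Flt3. Xcr1 and Clec9a, the most restricted cDC1 markers, had log2 fold changes of -0.76 and -0.67 there (edgeR adjusted p 0.396 and 0.262), on no more than 31 and 74 counts in any library. The cDC1 sum ranged from 89.6 to 120.2 CPM in knock-in male normal colon and from 63.1 to 84.6 CPM in their tumours, and its correlation with Wdfy4 was 0.74 (Spearman 0.69). A sum of leukocyte and macrophage markers correlated with Wdfy4 at 0.75 (Spearman 0.79), and ranged from 153.1 to 259.0 CPM in knock-in male normal colon and from 78.1 to 163.8 CPM in their tumours. Of the 4 leukocyte markers 0 passed in knock-in male tumours (background 20.4%). In wild-type tumours 2 rose in each sex (50% against 35.7% in males and 49.1% in females). Mean leukocyte sums in wild-type normal colon and tumours were 140 and 186 CPM in males, and 119 and 138 CPM in females. Wdfy4 means went the other way, at 45.9 and 35.5 CPM and at 28.4 and 17.1 CPM. The cDC1 means were 80.0 and 87.5 CPM in wild-type females, and 93.3 and 83.9 CPM in wild-type males. The part of immune cell content in the Wdfy4 result was not tested.

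Genes most like Wdfy4 were Ciita, the master switch of MHC class II genes (Pearson 0.97), Cyfip2, an actin regulator (0.96), and Ikzf3, the lymphocyte factor Aiolos (0.96). Within the wild-type libraries these were 0.92, 0.91 and 0.90, and within the knock-in libraries 0.98 in each. Lrrc18 lies inside Wdfy4 on the other strand without touching its exons and had 446 counts over all libraries.

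No member passed between the sexes in the edgeR fit reported here. In wild-type normal colon, knock-in normal colon and wild-type tumours 0 of 4 passed the edgeR test, where 15.9%, 0.584% and 0.86% of all genes passed. Against such backgrounds counts of 0 of 4 say little about the members. With library totals Wdfy3 passed in wild-type normal colon (edgeR adjusted p 0.0452). The DESeq2 Wald test also called 0 in each, and limma voom called 1, Wdfy4 in wild-type normal colon. At an unadjusted p under 0.05, only Wdfy3 in wild-type normal colon (log2 fold change, female minus male, -0.24) and Wdfy4 in wild-type tumours (-1.06, edgeR adjusted p 0.197) stood out. Wild-type female tumours had Wdfy4 at 13.9 to 18.9 CPM, below all wild-type male tumours at 28.2 to 45.8 CPM, and 31.2% of all genes had no overlap there. That Wdfy4 comparison passed when only the 2 tumour groups entered the fit (edgeR adjusted p 0.0223). The difference of the tumour effect passed for 0 of 4 members between male genotypes (background 1.51%) and for 0 of 4 between the sexes in the wild-type (background 1.12%) with edgeR. At an unadjusted p under 0.05, and by the DESeq2 Wald test and limma voom, the counts were also 0. These counts too say little about the members, given the backgrounds.

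The 4 genes did not vary together. Pearson correlations of log2 CPM between members over the 21 libraries lay between -0.48, for Wdfy1 and Wdfy4, and 0.41, for Wdfy2 and Wdfy3.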

How the data were processed

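Total RNA from mouse colon was depleted of ribosomal RNA before libraries were primed with hexamers. Sequencing used a NovaSeq instrument, per the labels' protocols. Per the submitters' processing notes the tools were Trimmomatic, HISAT2, featureCounts and DESeq2, with build mm10; versions and the strand setting are not given in the sources used here. The deposited table holds raw counts per gene for 21 libraries; the authors' table of comparisons was not used. In the knock-in female normal group 2 columns share a header and were used as replicates a and b. Without a stated strand setting, reads of antisense partners cannot be told apart.

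Counts were tested with edgeR's quasi-likelihood F test (edgeR 4.0.16, R 4.3.3; two-sided, TMM scaling, filterByExpr, robust, 1 fit of all 7 groups), with Benjamini-Hochberg adjustment over 15936 genes and a threshold of 0.05. Log2 CPM used a prior count of 2. Standard errors were derived from each fold change and its F. RPKM divides CPM by the union exon length in GENCODE M21. Total counts per library ran from 3414123 to 26174008, and the 3-count floor covers counting error only. On simulated data for 15700 genes, with 200 changed in wild-type male tumours, the test recovered 69% with 4 false calls, made 0 calls where nothing was changed, and recovered 46% for the difference between genotypes.

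Alternatives were DESeq2 size factors, library totals, 2 other low-count filters, the DESeq2 Wald test (DESeq2 1.42.0), limma voom with quality weights (limma 3.58.1), only the compared groups, the replicate number as a block, the later library numbers as a covariate, and leaving out each replicate. GC and length offsets, alone and with the block, were added after the data were seen. Replicate numbers come from the library names. For tumour against normal colon in wild-type males the deviations of same-numbered libraries correlated at 0.17, 0.17 and 0.21. These met the rule for pairing (all above 0.1), and no other comparison did. In male normal colon, replicate 1 of the knock-in and of the wild-type correlated at 0.46, so such values do not show pairing.

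The members and gene lists were chosen with earlier results of these data known. The text names all 4 members, each list's 2 genes with the smallest adjusted p or a member's best-known partners, and the 5 (Wdfy1) or 3 genes with the highest Pearson correlation among genes with a mean of at least 50 counts. Of these and of the marker lists, 1 gene each is not reported here, and the marker was left out of its list's sums and counts. Figures were drawn with matplotlib 3.10.9 in Python 3.11.15.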

Additional observations from a re-analysis of the deposited data

How the results depend on the processing

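The lower Wdfy1 in knock-in male tumours passed the threshold under all 11 alternatives that keep all replicates, with log2 fold changes between -1.10 and -0.86 and adjusted p between 3.79e-07 and 0.0233, and in all 6 fits that left out 1 replicate (-1.20 to -0.80). The number of members called was 0 in place of 1 for tumour against normal colon in wild-type males with GC and length offsets, with these plus the block, and with only the compared groups. It was also 0 in wild-type females with the offsets, alone or with the block, and 0 in knock-in males with voom and with only the compared groups. It was 2 in place of 1 between male tumours of the 2 genotypes with the DESeq2 Wald test and with voom, where Wdfy3 passed too. It was 1 in place of 0 between the sexes in wild-type normal colon with library totals (Wdfy3) and with voom (Wdfy4), and in wild-type tumours with only the compared groups. Leaving out 1 replicate gave 0 to 1 members called in wild-type and in knock-in male tumours against normal colon, and 1 to 2 between male tumours of the genotypes. The cause of these changes was not tested. The genotype difference of Wdfy1 in female normal colon was -1.24 with library totals and -1.26 with the offsets. Library totals moved the median of all genes by 0.14 in wild-type female tumours against normal colon and by 0.11 in the difference of the tumour effect between sexes.

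With the replicate block, Wdfy3 in wild-type males had a log2 fold change of 0.28 and an edgeR adjusted p of 0.0474. That comparison met the rule for pairing, but the sources used here do not settle whether its libraries share animals. The block changed no count of members called: 1 in each of the 3 tumour comparisons and between male tumours of the genotypes, and 0 elsewhere. No paired analysis was possible for comparisons with knock-in females, whose columns carry too few numbers.

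Uncalled values near 0 changed sign. Wdfy1 in knock-in males, tumour against normal, was -0.087 with the offsets, -0.095 with offsets and block and -0.072 with voom, and -0.23 to 0.18 with 1 replicate left out. Wdfy2 between male tumours of the genotypes was -0.020 with voom and -0.053 to 0.31 with 1 replicate left out. With 1 replicate left out, Wdfy2 ranged from -0.081 to 0.29 in wild-type males and from -0.044 to 0.33 in wild-type females, and Wdfy3 in knock-in males from -0.073 to 0.16. Of 220 counts of pathway list genes called under alternatives that keep all replicates, 47 moved by more than 1.5 times. Using Spearman correlations, 3 of 5 genes most like Wdfy1 remained, and 1, 2 and 1 of 3 for Wdfy2, Wdfy3 and Wdfy4. Wdfy2 had the lowest counts of the 4 members, down to 48.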
